A study of Mus musculus with 6 samples.

Results

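The genes described here are the fibroblast growth factor (FGF) pathway genes outside the ridge ligands: 18 Fgf ligand or Fgf-like genes, 5 receptor genes, the adaptor gene Frs2 and 12 feedback or target genes of the Sprouty, Spred, Dusp, Il17rd and Etv groups. All 36 were found among the 21519 protein-coding genes placed on chromosomes 1 to 19 and X. Each gene was searched for SP8 peaks whose centre lay inside it or within 10 kb or 100 kb of its start or end in assembly GRCm38. SP8 is a zinc-finger transcription factor made by limb ectoderm, the cell layer that covers the limb bud.

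The peaks come from chromatin immunoprecipitation sequencing (ChIP-seq) of ectoderm peeled from forelimb buds of mouse embryos at stage E10.5, background strain C57BL6J. The embryos were homozygous for a knock-in allele, labelled Sp8FL KI, that encodes SP8 with a FLAG epitope, and chromatin was pulled down with the FLAG M2 antibody. The ectoderm of 50 forelimb buds was pooled for a replicate, so a peak describes a pool of embryos and not a single animal. The series holds 6 libraries, and the values below come from 1 list of 1451 SP8 peaks, named by the authors for SP8 replicate 1. No second peak list, read count or input value was analysed here, so peaks have no replicate check, the depth behind them is unknown, and a gene without a peak cannot be told apart from a gene bound below the calling threshold. A peak list holds no RNA levels, so the labelled tissue was not checked against its marker genes, and which of these genes the ectoderm expresses was not measured.

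FGF ligands are secreted proteins that bind receptor tyrosine kinases at the cell surface together with heparan sulfate, and the receptors pass the signal through the adaptor FRS2 to the RAS and ERK kinases. In the limb bud the signal runs in both directions: FGF10 from the mesenchyme acts on FGFR2 in the ectoderm, and the ridge ligands, FGF8 foremost, act back on the mesenchyme. ERK activity switches on the genes of its own inhibitors, among them the Sprouty and Spred proteins and the DUSP phosphatases, and the transcription factor genes Etv4 and Etv5.

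Few of these genes had an SP8 peak close by, at shares near those of all protein-coding genes. A peak centre lay inside or within 10 kb of 4 of the 36 genes (11.1%, Wilson 95% interval 4.41 to 25.3), namely Fgfrl1, Spry1, Dusp4 and Fgf21. Among all protein-coding genes the share was 6.48%. Within 100 kb there were 10 of 36 genes (27.8%, 15.8 to 44.0), with Etv4, Fgf11, Fgf1, Fgfr4, Fgf12 and Fgf7 added, against 20.1% of protein-coding genes. Within 1 kb there were 3 (8.33%, background 4.78%), within 500 kb 19 (52.8%, background 51.0%) and within 1 Mb 23 (63.9%, background 69.3%). These background shares lay inside the intervals of the FGF pathway genes. With the full list, the counts thus did not stand apart from those of protein-coding genes in general. The intervals cover counting error over genes only, and some of the genes are neighbours. The median distance to the nearest peak was 452 kb over the 36 genes (95% interval of the median, 188 kb to 1.07 Mb) and 481 kb over all protein-coding genes.

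The 10 genes had 10 different peaks, 1 each. For Spry1, Dusp4, Fgfrl1 and Etv4, the gene was also the nearest protein-coding gene to its peak. For the other 6 genes, a different protein-coding gene was nearer. The 4 nearest genes, 11.1% of the 36, compare with 5.64% of all protein-coding genes that were nearest to at least 1 peak within 100 kb. These 4 were 3 of the 12 feedback or target genes and the decoy receptor gene, and none of the 18 ligand genes was among them. For 18 genes, a count of 0 is near the share of 5.64%. Whether nearest or not, 5 of 18 ligand genes and 3 of 12 feedback or target genes had a peak within 100 kb. The background there was 20.1%, and these counts show no split between the roles. The difference between ligand and feedback genes was not tested.

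**Figure D1:**
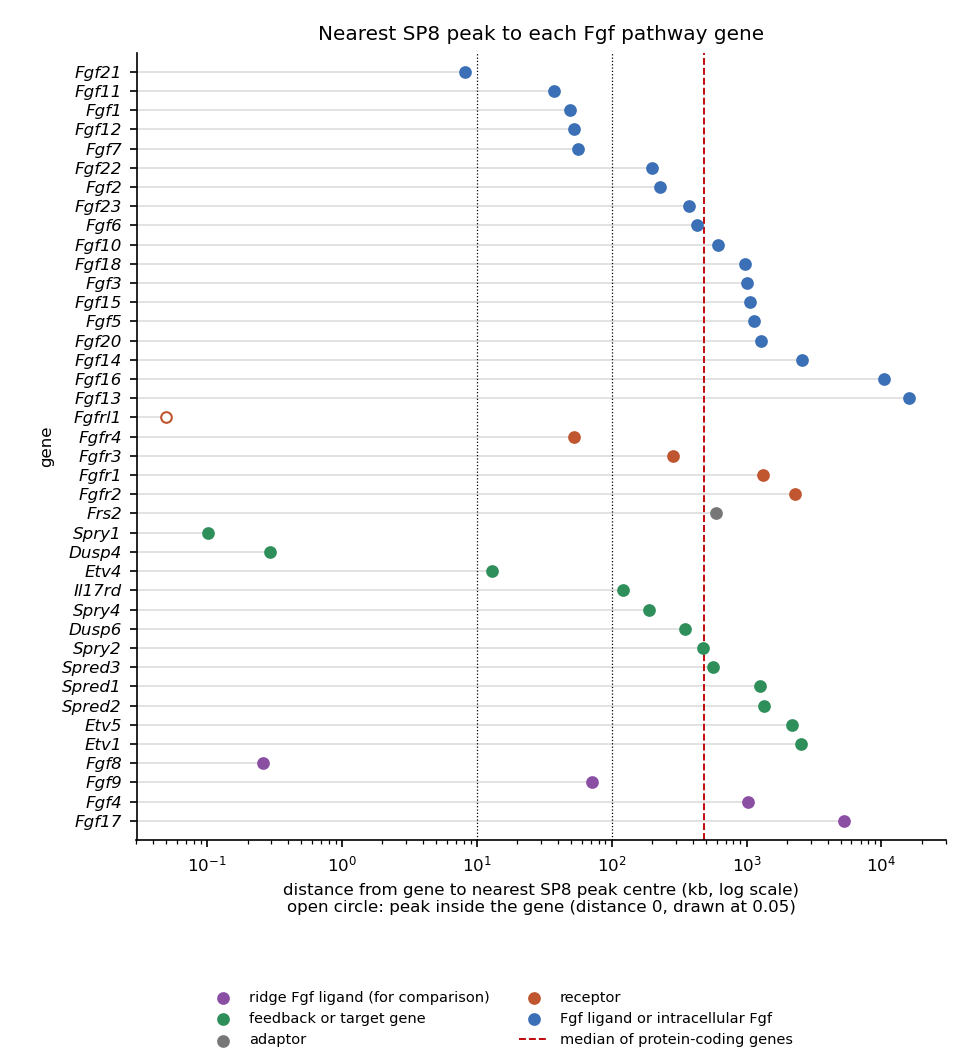
Distance in kb (log axis) from each of the 36 FGF pathway genes, and from the 4 ridge ligand genes, to the nearest SP8 peak centre, 1 point per gene, coloured by role. Spry1, Dusp4 and Fgfrl1 have a peak within 1 kb, and 26 of the 36 genes lie to the right of the 100 kb line.

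The promoter sequences below are those of Spry1 and Fgfrl1, with a peak centre within 1 kb of the start site, and of a pair of feedback genes without a peak nearby. Dusp4 was not matched in the sequence table. They are the 250 bases before the transcription start site, written 5′ to 3′ on the gene's strand, from RefSeq (GRCm38.p6). Capitals mark GGGCGG, the GC box that SP-family zinc fingers are known to bind, on either strand. Spry1 is shown because all 250 bases lie inside a peak, Fgfrl1 because its peak starts just past the start site, and Spry2 and Dusp6 because they are feedback genes of the same kinds as Spry1 and Dusp4 with no peak within 100 kb.
Spry1, chr3:37639697-37639946, plus strand: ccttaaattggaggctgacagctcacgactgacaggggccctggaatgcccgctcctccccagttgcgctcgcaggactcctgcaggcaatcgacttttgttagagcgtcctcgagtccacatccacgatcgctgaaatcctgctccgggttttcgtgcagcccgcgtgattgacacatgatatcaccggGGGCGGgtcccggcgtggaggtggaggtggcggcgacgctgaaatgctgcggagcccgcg
Fgfrl1, chr5:108693979-108694228, plus strand: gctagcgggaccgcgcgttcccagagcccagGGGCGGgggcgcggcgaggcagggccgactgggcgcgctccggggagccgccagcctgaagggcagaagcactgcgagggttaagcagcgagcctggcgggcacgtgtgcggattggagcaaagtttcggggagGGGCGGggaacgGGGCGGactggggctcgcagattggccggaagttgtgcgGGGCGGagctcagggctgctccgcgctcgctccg
Spry2, chr14:105896820-105897069, minus strand: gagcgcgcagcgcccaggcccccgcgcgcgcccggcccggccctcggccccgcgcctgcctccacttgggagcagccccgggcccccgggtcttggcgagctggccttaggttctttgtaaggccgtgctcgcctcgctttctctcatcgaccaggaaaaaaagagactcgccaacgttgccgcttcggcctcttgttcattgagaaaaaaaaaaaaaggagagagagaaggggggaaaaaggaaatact
Dusp6, chr10:99262981-99263230, plus strand: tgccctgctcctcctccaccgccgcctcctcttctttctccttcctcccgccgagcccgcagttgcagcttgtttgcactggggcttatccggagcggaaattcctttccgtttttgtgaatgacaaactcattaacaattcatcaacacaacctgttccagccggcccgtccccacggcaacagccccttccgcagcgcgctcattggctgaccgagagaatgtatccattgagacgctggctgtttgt
Spry1 holds 1 GC box, at -60 to -55 from the start site, and the middle of those letters is 45 bp from the peak centre. Fgfrl1 holds 4, and the nearest of them to its peak is 431.5 bp from the peak centre. Spry2 and Dusp6 hold none in these windows. They do not stand for all feedback genes without a peak: in windows that also take in 50 bases after the start site, Spred1, Spred3, Il17rd and Etv5 had up to 3 GC boxes and Spred2 had 1, with no peak within 100 kb. The G+C content of the 4 sequences was 62.4% for Spry1, 73.6% for Fgfrl1, 62.4% for Spry2 and 56.4% for Dusp6. Spry1 and Spry2 thus had the same share of G and C.

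Spry1 encodes a Sprouty protein, an intracellular inhibitor of receptor tyrosine kinase signalling. Its peak, at chr3:37639669-37640020, was 351 bp wide and had number 645 in the list. The centre was 102.5 bp upstream of the start site, and the peak covered all 300 bases of the promoter window from 250 before to 50 after the start. There were 2 other protein-coding genes within 100 kb of Spry1, and no second peak within 500 kb. The same peak was also the nearest to Fgf2, 230 kb away on the same chromosome.

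Dusp4 encodes a nuclear phosphatase that switches off ERK. The peak at chr8:34807145-34807490 was 345 bp wide, had number 995, and was centred 292.5 bp outside the gene. It did not overlap the gene. A second peak lay 201 kb beyond the other end of the gene.

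Fgfrl1 encodes an FGF receptor that lacks the tyrosine kinase domain and is often described as a decoy. The peak at chr5:108694502-108694756 was 254 bp wide with number 417, and its centre was inside the gene, 400 bp downstream of the start site. It was the only peak centred inside any of the 36 genes, and it began past the promoter window of 300 bases, which it did not overlap.

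**Figure D2:**
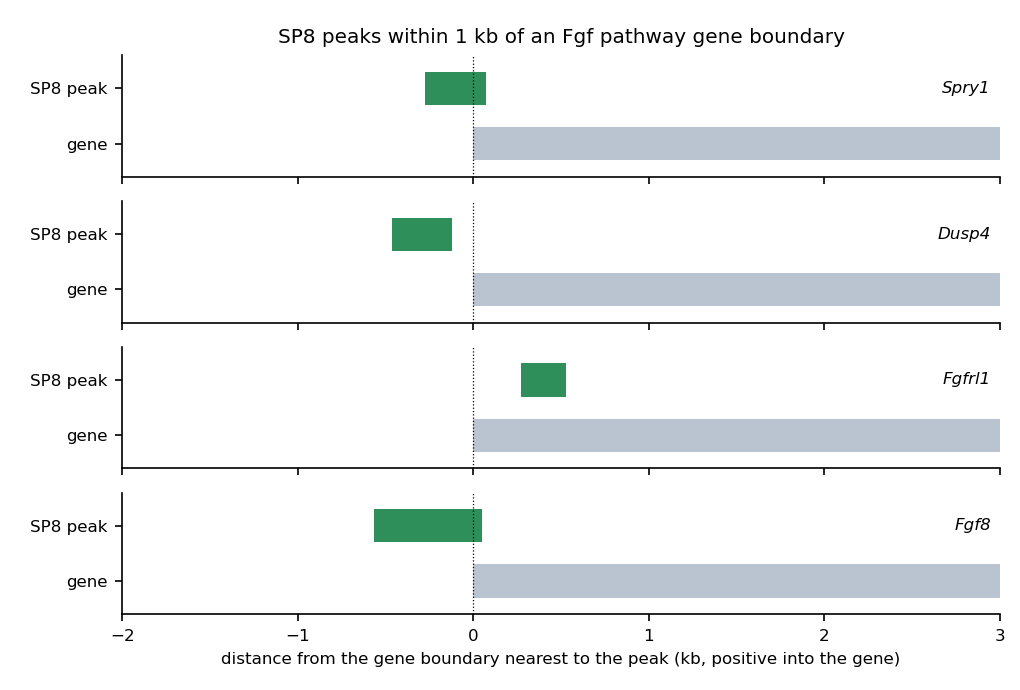
Position of the SP8 peak (green bar) and the gene (grey bar) in kb from the gene boundary nearest to the peak, positive values pointing into the gene, for Spry1, Dusp4, Fgfrl1 and the ridge ligand gene Fgf8. The Spry1 and Fgf8 peaks cross the boundary, the Dusp4 peak lies outside the gene, and the Fgfrl1 peak lies inside it.

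Among the other Sprouty and Spred genes, no peak lay within 100 kb. The nearest peak was 188 kb from Spry4, 475 kb from Spry2 and 560 kb from Spred3, and it was 1.26 Mb from Spred1 and 1.35 Mb from Spred2. The Spry4 peak, at chr18:38789141-38789358, is the one nearest to Fgf1 as well and lies inside Arhgap26. Thus 1 of 6 Sprouty and Spred genes had a peak within 100 kb, beside 20.1% of protein-coding genes, a share that 6 genes cannot be told apart from. Spry2 lies in a gene-poor stretch with 0 other protein-coding genes within 100 kb, while Spred3 had 10 such neighbours, and neither had a peak there.

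Dusp6 encodes the cytoplasmic ERK phosphatase that is widely used as a readout of FGF signalling in the limb bud. Its nearest peak was 349 kb away, next to Atp2b1, a calcium pump gene whose boundary was 171 bp from the peak centre. Il17rd, which encodes the membrane inhibitor also called SEF, was the first gene outside the 100 kb limit, with a peak at 121 kb inside Arhgef3. Inside that limit the most distant was Fgf7 at 56.7 kb, which leaves a gap around the limit. At the 10 kb limit, Fgf21 was inside at 8.24 kb and Etv4 outside at 13.0 kb.

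The Etv genes of the PEA3 group encode transcription factors induced by FGF signalling. Etv4 had a peak at chr11:101798109-101798423, 314 bp wide and number 507, centred 13.0 kb beyond the boundary of the gene. No other protein-coding gene was nearer to it, but the noncoding gene Gm39392 was, at 9114 bp. Etv5 and Etv1 had no peak within 1 Mb, with the nearest at 2.16 and 2.53 Mb. The nearest peak to Frs2, the adaptor gene, was 597 kb away, inside Kcnmb4.

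Of the receptor genes, Fgfr4 was the other one with a peak within 100 kb. That peak, at chr13:55100205-55100590, had number 116, the earliest of the 10, and was 52.4 kb upstream of the Fgfr4 start site. It was centred 97.5 bp from a start site of Uimc1, a gene for a ubiquitin-binding DNA repair protein, and 3 protein-coding genes were nearer to it than Fgfr4. Fgfr3 had its nearest peak at 283 kb, 4.28 kb from the homeobox gene Nkx1-1. Fgfr1 and Fgfr2, the receptors best known from limb mesenchyme and limb ectoderm, had no peak within 1 Mb, the nearest being 1.32 Mb and 2.29 Mb away. Fgfr2 had 0 other protein-coding genes within 100 kb.

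Of the 18 ligand genes, 5 had a peak within 100 kb (27.8%, background 20.1%) and 1 within 10 kb (5.56%, background 6.48%), both near the shares of protein-coding genes. Fgf21 encodes a hormone-like FGF known from liver metabolism. Its peak, at chr7:45623561-45623894, was 8.24 kb upstream of its start site but inside Izumo1, a gene for sperm and egg fusion, 1916.5 bp from an Izumo1 start site. Fgf21 lies in a gene-dense region with 16 other protein-coding genes within 100 kb, and 3 of them were nearer to the peak.

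Fgf11 and Fgf12 belong to the Fgf genes whose proteins stay inside the cell and bind sodium channels. The peak nearest to Fgf11, at chr11:69758461-69758858, was 37.4 kb from it and centred 26.5 bp from the start site of Polr2a, the gene of the largest RNA polymerase II subunit. Fgf11 had the most neighbours of the 36 genes, with 19 other protein-coding genes within 100 kb and 9 peaks within 500 kb. The peak nearest to Fgf12, at chr16:28805880-28806358, was 478 bp wide, the widest of the 10, and lay 52.9 kb upstream of the first start site and 20.1 kb from Mb21d2. Fgf13 and Fgf14, of the same subfamily, are 523 and 703 kb long and had no peak within 2 Mb.

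Fgf1 and Fgf7 were the remaining ligand genes. The Fgf1 peak on chromosome 18, number 480 and 217 bp wide, was 49.4 kb from the gene and lay inside Arhgap26. Fgf7 encodes a ligand made by mesenchyme that acts on epithelia. Its peak, at chr2:126147746-126148090, was 56.7 kb beyond the gene's end, inside Fam227b and 4086 bp from a Fam227b start site.

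**Figure D3:**
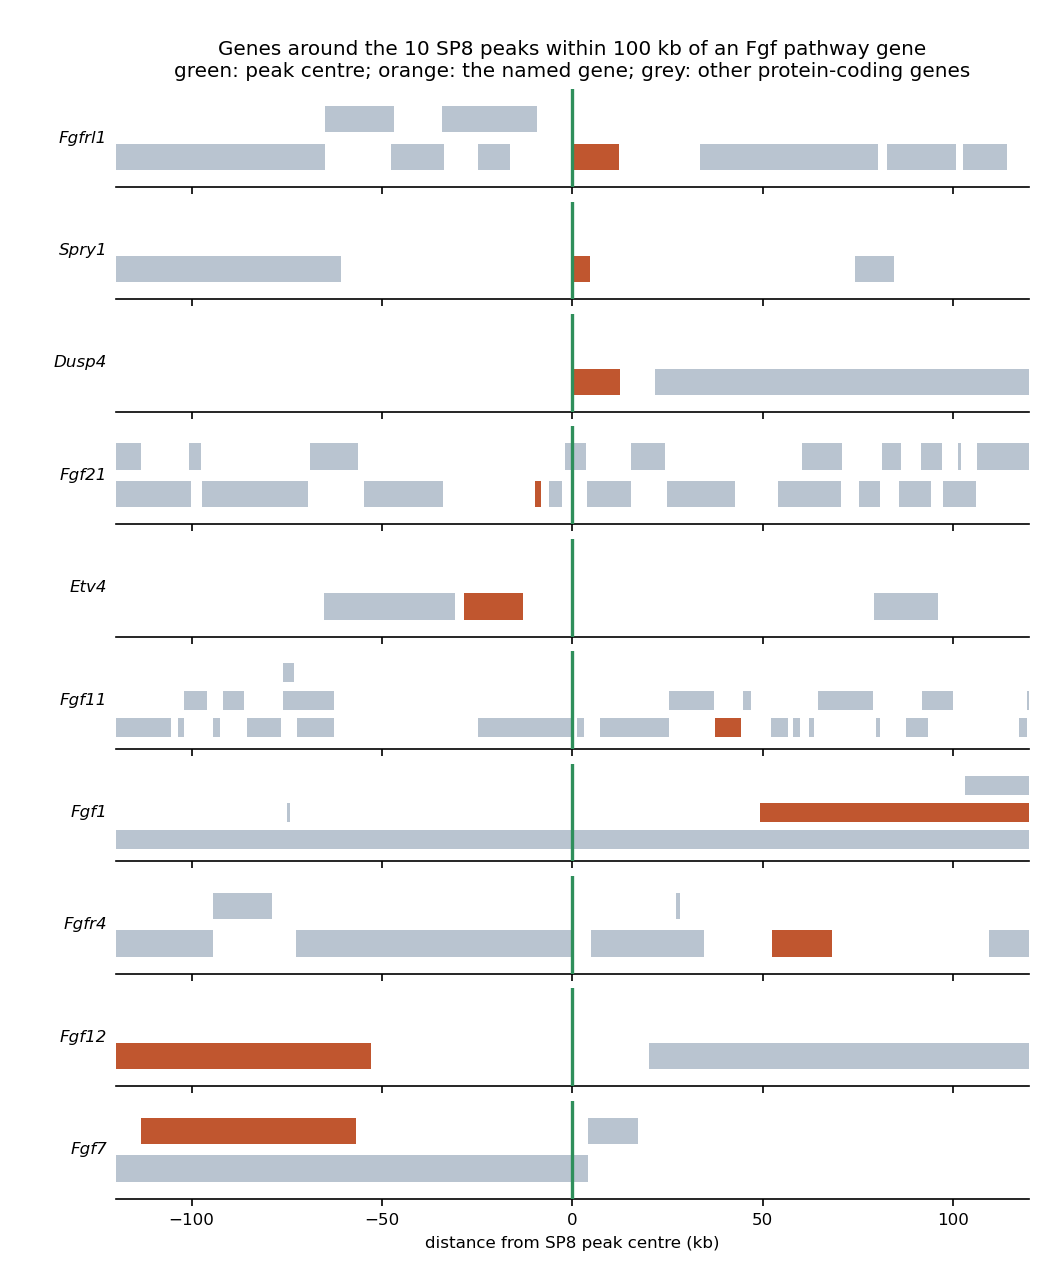
Protein-coding genes within 120 kb of each of the 10 SP8 peaks, with the peak centre at 0 (green line), the FGF pathway gene in orange and other genes in grey; the x axis is distance in kb. The orange gene touches or adjoins the green line for Fgfrl1, Spry1 and Dusp4, and other genes stand between or over the peak for Fgf21, Fgf11, Fgf1, Fgfr4 and Fgf7.

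The other 13 ligand genes had no peak within 100 kb. Fgf10, the mesenchymal ligand that is required for limb outgrowth, had its nearest peak at 617 kb, by Nnt, and no protein-coding neighbour within 100 kb. Nearer peaks were found for Fgf22 (199 kb), Fgf2 (230 kb), Fgf23 (372 kb) and Fgf6 (429 kb). Fgf6 and Fgf23 are neighbours on chromosome 6 and shared that peak, which lies inside Parp11. Fgf22 had 13 other protein-coding genes within 100 kb and 5 peaks within 500 kb, so peaks were present in its wider region.

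Fgf18 had a peak at 976 kb, and 7 ligand genes had none within 1 Mb. Among them Fgf3 (1.01 Mb) and Fgf15 (1.07 Mb) lie beside the ridge ligand gene Fgf4 (1.03 Mb) on chromosome 7. All 3 had the same nearest peak, inside the sterol reductase gene Dhcr7, and no peak followed them on that chromosome. Fgf5, Fgf20 and Fgf14 had their nearest peaks at 1.14, 1.27 and 2.60 Mb. Fgf16 and Fgf13 are on chromosome X, which holds 13 of the 1447 placed peaks, and were the farthest, with nearest peaks at 10511 and 16089 kb. In all, 13 of the 36 genes had no peak within 1 Mb.

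The ridge ligand genes are the closest relatives of this set, and 2 of the 4 had a peak within 100 kb, where the background was 20.1%. Fgf8 had a 616 bp peak centred 0.258 kb outside the gene, Fgf9 had one at 71.8 kb inside Micu2, and Fgf4 and Fgf17 had none within 1 Mb. With 4 genes, no difference from the other 36 was tested.

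Among protein-coding genes, length went with the share that had a peak within 10 kb, and crowding with the share within 100 kb. A peak within 10 kb was found for 4.10% of genes under 10 kb long, 6.10% of those of 10 to 30 kb, 7.69% of those of 30 to 100 kb and 12.5% of those over 100 kb. Of the FGF pathway genes, 2 of 11 under 10 kb (Spry1 and Fgf21), 2 of 9 of 10 to 30 kb (Fgfrl1 and Dusp4), 0 of 12 of 30 to 100 kb and 0 of 4 over 100 kb had one. All 4 genes with a close peak were under 30 kb long. Within 100 kb the protein-coding shares differed little by length, at 18.4%, 21.4%, 20.6% and 21.0% in the same order. The FGF pathway counts there were 3 of 11, 4 of 9, 2 of 12 and 1 of 4. In both windows a peak anywhere inside a gene counts at distance 0. By crowding, a peak within 100 kb was found for 13.1% of protein-coding genes with 0 or 1 others within 100 kb and for 26.1% of those with over 5. The FGF pathway counts were 2 of 14 and 3 of 6 in these classes, and 5 of 16 in the class of 2 to 5 others, where the background was 17.2%. Of the 3 in the crowded class, Fgfrl1 was the nearest gene to its peak, and Fgf11 and Fgf21 were not.

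The 10 peaks were of ordinary width. They ran from 217 to 478 bp with a median of 344.5 bp, and the median of all 1451 peaks was 336 bp. Their numbers in the list ran from 116 to 995 with a median of 529, and 8 of the 10 were among the first 725 peaks. With those first 725 peaks alone, 8 of the 36 genes had a peak within 100 kb (22.2%, 11.7 to 38.1), beside 10.7% of protein-coding genes, which lies just under that interval. What the order of the list stands for is not stated, so this is given as a position in the list and not as a strength. The later peaks were those of Dusp4 and Fgf11.

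Promoter sequence was then compared, using windows from 250 bases before to 50 after each start site. The RefSeq table held 37 windows for 28 of the 36 genes. Fgf1, Fgf15, Fgf16, Fgf20, Fgfr1, Spry4, Dusp4 and Etv4 were not matched. The motifs were searched by their letters on both strands: GGGCGG (GC box), CACCC (the CA box bound by KLF and SP proteins) and TAATTA (a homeodomain core, which reads the same on both strands). A GC box followed by GTG shares letters with a CACCC match on the opposite strand. Matches describe the letters in the window and not bound sites. Of the 28 genes, the start sites of Spry1 and Fgfrl1 were at most 1 kb from a peak (7.14%), beside 2.91% of protein-coding genes in the table.

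GC boxes were common in these promoters, and all but 1 of the windows had no overlapping peak. Of the 28 genes, 20 had a GC box in at least 1 window. Some genes have several windows, and no such share was taken over all genes, so this count has no background. By window, 24 of the 37 (64.9%) held one, beside 46.7% of the windows of protein-coding genes and 35.9% of all 32619 windows. Only the Spry1 window was overlapped by a peak, 2.70% of the 37, where 1.51% of all windows were. Fgfr3, Fgfr4, Fgf13 and Fgfrl1 each had a window with 4 GC boxes and no overlapping peak. Among all windows, 438 of the 491 overlapped by a peak held a GC box (89.2%), yet only 3.74% of the windows with a GC box were overlapped by a peak. Without a GC box the share was 0.253%. The median G+C content was 68.0% in windows overlapped by a peak and 62.7% in those of the FGF pathway genes. It was 56.7% in windows of protein-coding genes and 53.0% in all. Base composition and the GC box were not separated.

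CACCC was found in 21 of the 37 windows (56.8%), close to the 57.7% of all windows and the 59.8% of those of protein-coding genes. It was in 71.1% of windows overlapped by a peak. The Spry1 and Fgfrl1 windows had none. TAATTA was in 0 of the 37 windows, beside 5.25% of all windows and 1.63% of those overlapped by a peak. It was in 4.47% of windows of protein-coding genes, a share that 0 of 37 windows cannot be told apart from. No match says only that these letters are absent from these windows, and peaks away from promoters, such as those near Etv4 and Fgf12, were not read because no genome sequence was used.

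**Figure D4:**
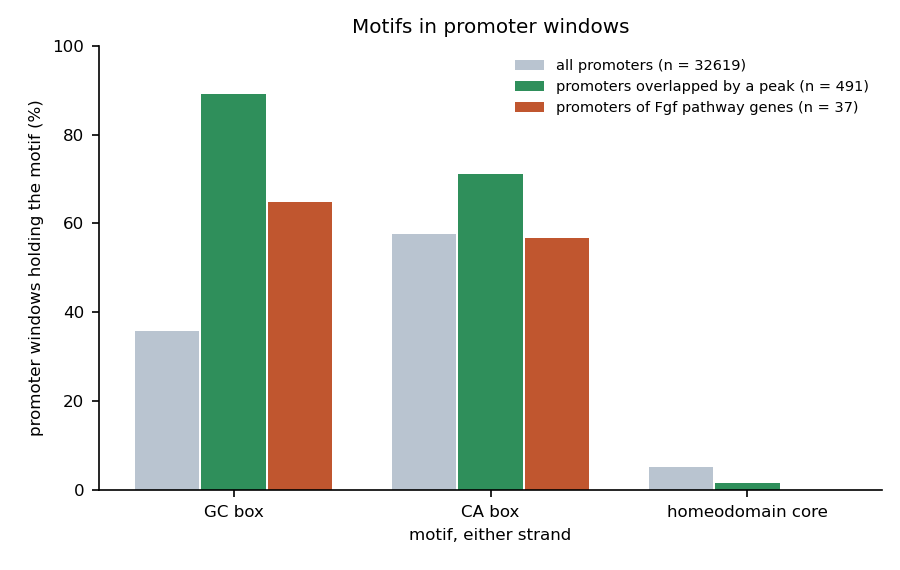
Share in percent of promoter windows of 300 bases that hold each motif on either strand, for all windows (grey, n = 32619), windows overlapped by an SP8 peak (green, n = 491) and windows of FGF pathway genes (orange, n = 37). The GC box stands at 35.9%, 89.2% and 64.9%, and the homeodomain core at 5.25%, 1.63% and 0%. In windows of protein-coding genes, which are not drawn, these motifs were in 46.7% and 4.47%.

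The rest of the pathway was followed through a list of 58 genes for ligand carriers and co-receptors, heparan sulfate enzymes and core proteins, the RAS and ERK relay, and other ERK inhibitors or targets. Of these, 56 could be placed, Anos1 and Spry3 being left out. A peak lay within 10 kb of 6 (10.7%) and within 100 kb of 13 (23.2%, 14.1 to 35.8), again near the 6.48% and 20.1% of protein-coding genes. By role, the genes with a peak within 100 kb were 7 of 22 in the RAS and ERK relay, 4 of 12 for heparan sulfate, 1 of 7 ligand carriers and co-receptors and 1 of 15 other ERK inhibitors or targets.

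The 6 with a peak within 10 kb included genes with the peak at the promoter. At Hs6st1, which encodes an enzyme that adds sulfate to heparan sulfate, the peak at chr1:36068087-36068576 was centred 68.5 bp upstream of the start site and covered the whole promoter window. At Plcg1, the gene of phospholipase C gamma, which FGF receptors activate, the peak at chr2:160730910-160731565 was centred 72.5 bp upstream and also covered the whole window. At Braf, the gene of a RAF kinase, the peak at chr6:39725271-39725537 was centred 59 bp downstream of the start site and covered 124 of the 300 bases. Gpc1, which encodes a heparan sulfate core protein, had a peak 161.5 bp outside the gene. The peaks of the remaining genes were shared with other genes: that in Flrt1 also lies inside Macrod1, and that 233.5 bp from Shc1 lies inside Pygo2, a Wnt pathway gene, and 8641.5 bp from a Shc1 start site.

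**Figure D5:**
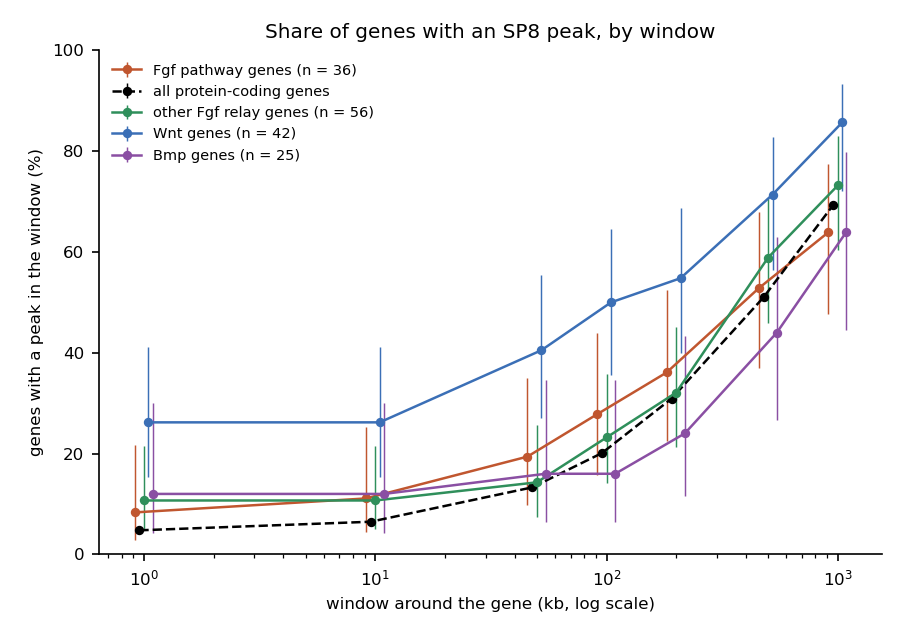
Share of genes in percent with an SP8 peak centre inside the gene or within the window on the x axis (kb, log scale), with Wilson 95% intervals as bars; points are shifted slightly sideways for legibility. The FGF pathway genes stand at 11.1% at 10 kb and 27.8% at 100 kb, beside 6.48% and 20.1% of all protein-coding genes, and the Wnt genes stand highest at each window.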

How the data were processed

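SP8-FLAG ChIP-seq peaks were taken from 1 deposited list, whose name gives SP8 replicate 1, a q of 0.1 and a fold change of 3. It holds position and a running number, with no header, fold or q. Per the submitters' processing notes, FastQC, TopHat2, SAMtools, MACS2 and deepTools and the builds GRCm38 and mm10 were used, with no settings. Pooling and the control library are not given in the sources used here. The 6 samples were grouped by title into 4 groups; no comparison between groups could be made from 1 list.

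Genes came from the RefSeq table of GRCm38.p6 (49210 of 49997 genes used; chromosomes 1 to 19 and X, start of at least 3 Mb, which leaves out Spry3). Strand came from the RefSeq promoter table. Peaks were placed by their centre, with positions as deposited (whether starts count from 0 or 1 is not stated). The 4 peaks on unplaced contigs were left out of gene distances. A distance of 0 means inside the gene. Python 3.11.15, pandas 2.3.3, numpy 2.4.6 and scipy 1.17.1 (Wilson intervals) were used, and distances were checked on simulated peaks.

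The genes, lists and windows were chosen with earlier results of these data known. All 36 genes are accounted for. Genes with a peak within 10 kb were described with every peak in 100 kb, those at 10 to 100 kb with the nearest. No p-values are given, and lists are set beside all protein-coding genes. Alternatives covered windows, peak edges, gene bodies, list order, peak width, merging, nearest genes, background and motif letters.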

Additional observations from a re-analysis of the deposited data

How the results depend on the processing

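Over 12 results and 52 alternatives, 42 stayed within 1.5 times the reported count or inside the interval of the median. Alternatives that changed only the background are among the 42, and their counts could not move. Over those backgrounds the share ran from 4.1% to 12.5% within 10 kb and from 16.4% to 21.4% within 100 kb. The FGF pathway genes stood at 11.1% (4.41 to 25.3) and 27.8% (15.8 to 44.0). Within 10 kb, the backgrounds of all genes (4.16%) and of genes under 10 kb long (4.1%) lay just under that interval. With peaks wider than the median, the FGF pathway genes with a peak fell to 2 within 10 kb and 6 within 100 kb, where the backgrounds were 3.48% and 11.3%. A window of 500 kb gave 19 genes, beside 51.0% of protein-coding genes. Counting only genes nearest to the peak left 4 within 100 kb. With the first 725 peaks the median distance was 1130 kb, beside 970 kb for protein-coding genes. A window of 10 kb left 1 ligand gene, 1 receptor gene, 1 ridge ligand gene and 6 other pathway genes. CCACCC in place of CACCC was in promoters of 7 of the 28 genes instead of 18. By window, CCACCC was in 18.9% of the 37, beside 31.6% of all windows and 33.8% of those of protein-coding genes. Counts change by construction with fewer peaks, other windows or longer motifs, but the place beside the background need not. The median distance was under its background with all peaks (452 and 481 kb) and over it with the first 725. By window, CACCC was near the share of all windows (56.8% and 57.7%), and CCACCC was under it. The reasons were not tested. No paired analysis was possible because 1 peak list was analysed. Leaving out replicates was likewise impossible. Unknown depth limits what can be said of genes without a peak.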

Other observations

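Genes of other signalling pathways were counted in the same way, from lists chosen with earlier results known, beside 20.1% of all protein-coding genes with a peak within 100 kb. Of 42 Wnt pathway genes, 21 (50.0%, Wilson 95% interval 35.5 to 64.5) had a peak within 100 kb. Of 25 BMP pathway genes, 4 (16.0%, 6.40 to 34.7) had one, near the share of all protein-coding genes. The FGF pathway genes stood at 27.8% (15.8 to 44.0), an interval that overlaps those of both other lists. By role, the Wnt count was 11 of 19 ligand genes, 7 of 12 receptor genes and 3 of 11 feedback genes, and the BMP count was 1 of 9, 0 of 6 and 3 of 10. Some of the Wnt genes share peaks: the peak nearest to Wnt1 lies inside Wnt10b, and that nearest to Wnt9b lies inside Wnt3. At the Frizzled receptor genes Fzd4, Fzd5 and Fzd7, peaks were centred 70, 62 and 78.5 bp upstream of a start site. The Fzd4 peak also lies inside Tmem135. The windows there held 8, 10 and 7 GC boxes. Of the other Frizzled genes, Fzd2 had a peak 46 bp outside the gene. Fzd10, Fzd1 and Fzd3 had their nearest at 35.3, 67.9 and 81.4 kb, and Fzd6, Fzd8 and Fzd9 had none within 100 kb. Windows of FGF-related genes overlapped by a peak held 7 at Hs6st1, 2 at Plcg1, 1 at Braf and 1 at Spry1. Of the FGF receptor genes, Fgfr2, Fgfr3, Fgfr4 and Fgfrl1 had no promoter window overlapped by a peak, and Fgfr1 was not matched in the promoter table. Only 1.51% of all windows were overlapped by a peak, so none in so few genes is near that share. The Fgfrl1 peak was centred 400 bp past the start site, beyond the window. The difference between pathways was not tested.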
